A study of Mus musculus with 6 samples.

Results

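E-cadherin is the adhesion protein that joins neighboring epithelial cells, and the transcripts examined here belong to genes that are commonly used to place a cell between an epithelial and a mesenchymal state. The genes were Cdh1, which encodes E-cadherin, Tjp3, which encodes the tight junction scaffold ZO-3, Elf3, which encodes an epithelium-restricted ETS transcription factor, and Twist1, which encodes a basic helix-loop-helix (bHLH) transcription factor. They were found by symbol in a table of genes that differ between ID8 and KMF cells, which listed each of the 4 once among 7320 genes, or 42.2% of the genes that had been tested to make it. All 4 were chosen because they differed between the lines, so their differences are described here without a test. The lines were both grown for 5 days as tumorspheres, which are floating cell clusters in serum-free PromoCell XF medium, without any other treatment. ID8 is a clonal line of spontaneously transformed ovarian epithelial cells from C57Bl6 mice, and KMF (also labeled ID8-IP) was recovered from ascites of C57Bl6 mice injected with ID8 cells and carries spontaneous DNA gains and losses. RNA of 3 passages was sequenced for each line, namely passages 23, 24 and 35 for ID8 replicates 1 to 3 and passages 14, 17 and 22 for KMF replicates 1 to 3. Each line is a single line, so the spread between libraries, which the p-values measure, is that between passages of that line. Every KMF library was at a lower passage than every ID8 library, so line and passage number cannot be told apart. In bulk RNA a smaller share of cells with a transcript and less of it in each cell cannot be told apart.

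In epithelia, E-cadherin molecules of adjacent cells bind each other and are anchored to actin through catenins at adherens junctions, while ZO proteins hold claudins and occludin in place at tight junctions. During epithelial-mesenchymal transition (EMT), transcription factors of the Snail, Zeb and Twist families repress Cdh1 through short DNA elements named E-boxes, and cells lose their junctions. ELF3 and the Grainyhead-like factors are in contrast known as regulators of epithelial genes. Ovarian surface epithelium, the tissue of origin of ID8 cells, is a modified mesothelium that carries both epithelial and mesenchymal features.

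Because a pair of the genes encode DNA-binding proteins that recognize short elements, with E-boxes (letters CANNTG, the same on both strands) for TWIST1 and its partners, and elements with the core GGAA (TTCC on the other strand) for ETS factors such as ELF3, promoter sequences are shown to let these letters be seen. The promoter sequences at hand held no entry for Cdh1, so its promoter was not examined. RefSeq sequences on GRCm38.p6, from 250 bases before to 50 bases after a start site, were matched by symbol for Elf3, Tjp3 and Twist1. They are written 5′ to 3′ on the strand of the gene, with E-boxes in capitals.
Elf3 (chr1:135258423-135258722, minus strand): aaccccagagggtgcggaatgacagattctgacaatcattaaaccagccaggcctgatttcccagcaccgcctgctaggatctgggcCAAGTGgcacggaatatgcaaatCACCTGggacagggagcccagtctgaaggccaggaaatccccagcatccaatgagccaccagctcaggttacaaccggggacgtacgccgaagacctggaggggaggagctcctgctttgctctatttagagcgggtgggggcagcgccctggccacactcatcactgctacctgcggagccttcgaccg
Tjp3 (chr10:81291218-81291517, minus strand): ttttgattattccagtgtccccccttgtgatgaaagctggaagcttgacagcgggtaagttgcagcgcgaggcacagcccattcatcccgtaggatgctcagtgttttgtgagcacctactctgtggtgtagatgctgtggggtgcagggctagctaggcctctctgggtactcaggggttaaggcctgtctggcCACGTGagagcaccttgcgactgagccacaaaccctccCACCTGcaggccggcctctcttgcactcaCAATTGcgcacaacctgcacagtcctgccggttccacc
Twist1 (chr12:33957421-33957720, plus strand): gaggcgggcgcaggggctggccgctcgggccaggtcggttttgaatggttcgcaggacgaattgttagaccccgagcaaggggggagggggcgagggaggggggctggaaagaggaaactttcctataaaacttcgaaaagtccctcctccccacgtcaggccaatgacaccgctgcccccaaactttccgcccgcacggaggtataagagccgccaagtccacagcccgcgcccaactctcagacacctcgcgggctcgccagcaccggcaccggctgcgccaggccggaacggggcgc
The Elf3 window held 2 E-boxes, with CAAGTG beginning 163 bases and CACCTG 140 bases before the start site. The Tjp3 window held 3, with CACGTG beginning 55 bases before the start site, then CACCTG 17 bases before it, and CAATTG 12 bases after it. The Twist1 window held 0 but has the letters TATAAA once. An E-box of any kind was present in 72.3% of 32851 promoter windows of the same length, and the form CACCTG, which reads CAGGTG on the other strand, in 20.2%. The core GGAA, on either strand, occurred 4 times in the Elf3 window, 3 times in the Tjp3 window and 5 times in the Twist1 window, and at least once in 96.0% of all windows. TATAAA on either strand was found in 13.6% of windows. The start site of the Elf3 window lies 96 bases from the gene start in the deposited table, and those of the Tjp3 and Twist1 windows lie at it. Of the 2 start sites that RefSeq gives for Tjp3 in this table, the one shown is at the listed gene start.

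The epithelial genes went in both directions. Cdh1 and Twist1 were higher in ID8, and in KMF Cdh1 was low and Twist1 was not detected, whereas Elf3 and Tjp3 were near the limit of detection in ID8 and present in KMF. The 2 epithelial genes Elf3 and Tjp3 were thus higher in the line in which the epithelial gene Cdh1 was lower, and the EMT factor Twist1 was lower together with Cdh1. All 4 genes passed the edgeR threshold (adjusted p-value under 0.05) and all 4 had no overlap between the lines, as did 92.9% and 96.6% of the 6967 fitted genes, and since the genes were chosen on this contrast nothing is read from these counts. Mean FPKM (fragments scaled to gene length and to the fragments on genes of the library) was above 1 in one line and at or under 1 in the other for all 4 genes, as for 12.4% of listed genes, and nothing is read from this count either.

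**Figure D1:**
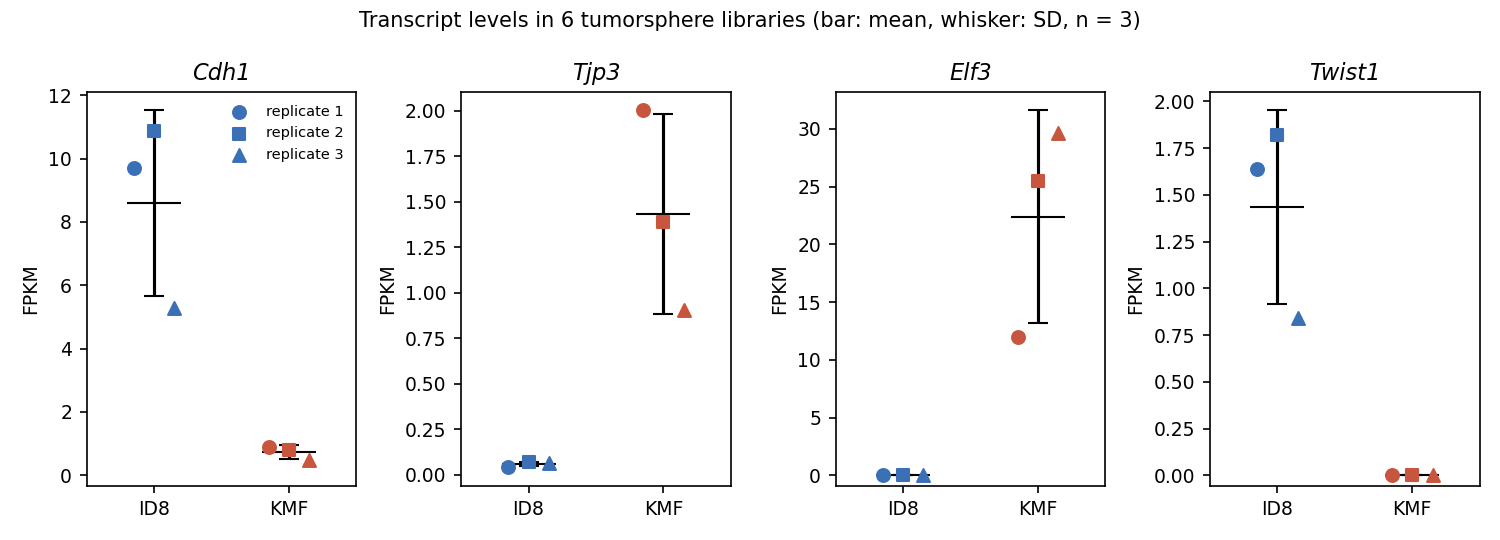
Points give the FPKM of Cdh1, Tjp3, Elf3 and Twist1 (vertical axes, linear, each gene on its own scale) in ID8 (blue) and KMF (red) libraries, with symbols for replicates, bars for the mean and whiskers for the SD (n = 3 per line). Cdh1 and Twist1 are higher in ID8 and Tjp3 and Elf3 in KMF, with no overlap of the lines, and ID8 replicate 3 is the lowest ID8 library for both Cdh1 and Twist1.

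Cdh1 (ENSMUSG00000000303, mm10 chromosome 8, 106603351 to 106670246, plus strand, protein coding) had 1265, 1161 and 601 counts in ID8 replicates 1, 2 and 3, or 9.69, 10.9 and 5.29 FPKM. In KMF replicates 1, 2 and 3 it had 94, 82 and 70 counts, or 0.900, 0.801 and 0.476 FPKM. Every KMF library was below every ID8 library, and Cdh1 transcript remained measurable in KMF. The fitted log2 fold change of KMF over ID8 was -3.55 ± 0.35 (SE), which ranked 385th in size among the 3306 genes called lower. From the summed counts, the level in ID8 was 12.4-fold that in KMF (exact 95% interval 10.9 to 14.2, which covers counting error only).

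Twist1 (ENSMUSG00000035799, chromosome 12, 33957671 to 33959817, plus strand, protein coding) had 78, 71 and 35 counts in ID8 replicates 1, 2 and 3, or 1.64, 1.82 and 0.844 FPKM. It had 0 counts in each of the 3 KMF libraries. A count of 0 allows up to 3 counts there, or up to 0.0787, 0.0803 and 0.0559 FPKM in KMF replicates 1, 2 and 3. With each KMF library set to the floor of 3 counts, the Twist1 level there was 20.01-fold lower than in ID8. This bound holds for that floor and leaves out counting error. The level of Cdh1 was 5.92, 5.97 and 6.26 times that of Twist1 in FPKM in ID8 replicates 1, 2 and 3, so that these genes kept nearly the same proportion within ID8 while both differed about 2-fold between libraries. ID8 replicate 3, at passage 35, had 0.515 of the mean Cdh1 level (CPM, counts scaled to the fragments on genes of the library) of the other ID8 libraries and 0.488 of their mean Twist1 level. Among the 3306 genes called lower in KMF, the median of this ratio was 1.03, and 4.96% of them were at or under the value of Cdh1. The part of passage in these values was not tested.

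Elf3 (ENSMUSG00000003051, chromosome 1, 135253575 to 135258568, minus strand, protein coding) had 3, 3 and 1 counts in ID8 replicates 1, 2 and 3, or 0.0486, 0.0593 and 0.0186 FPKM. In KMF replicates 1, 2 and 3 it had 594, 1235 and 2064 counts, or 12.0, 25.5 and 29.7 FPKM. All ID8 libraries were at or under the floor of 3 counts, and KMF replicate 1 was well below the other KMF libraries. The summed counts gave a level in KMF that was 552 times that in ID8, with an exact 95% interval from 268 to 1373 that covers counting error only and rests on 7 counts in ID8. KMF replicate 1, at passage 14, held 0.436 of the mean of the other KMF libraries (CPM), and 0.853% of the 3164 genes called higher in KMF had a ratio as low. Elf3 overlaps the antisense gene Gm26642 in GENCODE, with 162 shared exonic bases out of 2217 in Elf3. Gm26642 was not analysed here, and the library kit does not mark strand, so reads of the shared bases cannot be assigned.

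Tjp3 (ENSMUSG00000034917, chromosome 10, 81273207 to 81291267, minus strand, protein coding) had 4, 5 and 5 counts in ID8 replicates 1, 2 and 3, or 0.0449, 0.0685 and 0.0644 FPKM. In KMF replicates 1, 2 and 3 it had 143, 97 and 91 counts, or 2.01, 1.39 and 0.906 FPKM. Tjp3 was thus low in both lines and close to the floor in ID8. The fitted log2 fold change was 4.61 ± 0.44 (SE), ranked 104th in size among the 3164 genes called higher. The summed counts gave a 23.5-fold higher level in KMF (exact 95% interval 13.8 to 43.4, counting error only). KMF replicate 1, the lowest in Elf3, was the highest in Tjp3. It held 1.75 times the mean Tjp3 level of the other KMF libraries in CPM, a ratio that 1.33% of the genes called higher reached. Tjp3 shares 40 of its 3714 exonic bases with Apba3, a protein-coding gene on the opposite strand that was not analysed here.

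Ordered by FPKM, which is per length and so allows genes to be compared, the 4 genes changed places between the lines. In ID8 the order was Cdh1 (5.29 to 10.9), Twist1 (0.844 to 1.82), then Tjp3 (0.0449 to 0.0685) and Elf3 (0.0186 to 0.0593). The last 2 overlapped and could not be ordered, and no other neighbors in this order overlapped. In KMF the order was Elf3 (12.0 to 29.7), Tjp3 (0.906 to 2.01), Cdh1 (0.476 to 0.900) and Twist1 (0 in every library). The lowest Tjp3 value there, 0.906 in replicate 3, was close to the highest Cdh1 value, 0.900 in replicate 1. Within each KMF library Tjp3 was nonetheless above Cdh1, at 2.23, 1.73 and 1.90 times its level in replicates 1, 2 and 3. Elf3 was at 13.4, 31.9 and 62.4 times the level of Cdh1 in KMF replicates 1, 2 and 3.

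Other genes of the junctions and of epithelial and mesenchymal identity were then counted by role. The lists held 191 genes besides the 4 above, of which 92 were in the deposited table, and the others were not analysed here. Of 85 that could be fitted, 36 were called higher and 43 lower in KMF, that is 92.9% called, the same as the 92.9% of all fitted genes, of which 45.4% were called higher and 47.5% lower. The table had been selected on these same libraries, so these counts show directions and are not evidence that a list changed. The median log2 fold change of all fitted genes was -0.23. Its sign depended on the fit, at 0.165 without ID8 replicate 1 and 0.202 with at least 10 counts in every library. In the other alternatives it ranged from -0.346 to -0.139. Adjusted p-values below are from edgeR with Benjamini-Hochberg adjustment over 17359 genes.

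Listed genes of adherens junctions went in both directions. Cdh2, the gene of N-cadherin, which is commonly gained when E-cadherin is lost, was also lower in KMF. Its FPKM was 19.7, 21.7 and 17.4 in ID8 replicates 1, 2 and 3 and 7.21, 8.05 and 5.53 in the KMF replicates, with no overlap (log2 fold change -1.46 ± 0.16 SE, adjusted p-value 0.000285). It was the only one of 9 other classical cadherins in the table. Cdh3 and Cdh11 were not analysed here. Of 13 partners of the cadherins, 8 were listed and 7 fitted, 4 of them called lower and 3 higher (median log2 fold change -0.45). Nectin1 (listed as Pvrl1), an immunoglobulin-like adhesion receptor, rose by 1.61 ± 0.08, and the polarity gene Pard3 fell by 0.98 ± 0.10 on the log2 scale (± SE, adjusted p-values 1.40e-05 and 0.000176). Nectin2 (listed as Pvrl2), a receptor of the same family as Nectin1, fell by 0.52 ± 0.06 (SE, adjusted p-value 0.000532). Ctnnd1, the gene of p120-catenin that stabilizes E-cadherin at the membrane, had a log2 fold change of -0.45 ± 0.13 (SE, adjusted p-value 0.0246), and its call was lost in 4 of 15 alternatives, those without ID8 replicate 1, ID8 replicate 3, KMF replicate 2 or KMF replicate 3, with adjusted p-values from 0.00478 to 0.106 over the 15. Ctnnb1 and Ctnna1 were not analysed here.

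Tjp3 had the opposite direction to the called genes of the tight junction list. Of 26 other tight junction genes, 12 were listed and 11 fitted, of which edgeR called 10 lower and 0 higher, with a median log2 fold change of -1.54. At an unadjusted p-value under 0.05, 1 gene, Tjp1, would count as higher. Genes called lower were 47.5% of all fitted genes. Cldn15, a pore-forming claudin, had 6.08, 7.27 and 3.36 FPKM in ID8 replicates 1, 2 and 3 and 0.201, 0.114 and 0.0950 in KMF replicates 1, 2 and 3 (log2 fold change -5.33 ± 0.44 SE, adjusted p-value 7.91e-05). As for Cdh1 and Twist1, ID8 replicate 3 was the lowest of its line. Cldn11 had 23 to 27 counts in each ID8 library and 1 count in each KMF library, a 25.5-fold lower level that rests on 3 counts in KMF (exact 95% interval 8.41 to 127, counting error only, edgeR adjusted p-value 0.00023). Marveld2, the gene of tricellulin, ranged from 14 to 24 counts in ID8 and from 0 to 6 counts in KMF, a difference (-3.07 ± 0.73 SE on the log2 scale, adjusted p-value 0.0122) that was not called without KMF replicate 2 (adjusted p-value 0.0517). Tjp1, the gene of the Tjp3 paralog ZO-1, had overlapping ranges of 25.9 to 34.4 FPKM in ID8 and 32.8 to 36.4 in KMF and was not past the threshold (log2 fold change 0.28 ± 0.11 SE, adjusted p-value 0.0840, 0.0202 without ID8 replicate 1). At these levels Tjp1 was far more abundant than Tjp3 in each library of both lines. Ocln was not analysed here.

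Most of the listed desmosome genes were called higher in KMF, and the others of this list were not analysed here. Of 12 genes, 7 were listed and all 7 called, 6 of them higher (median log2 fold change 0.80). Pkp1, which encodes the desmosomal plaque protein plakophilin 1, rose from 1.44, 2.45 and 0.918 FPKM in ID8 replicates 1, 2 and 3 to 20.1, 18.8 and 21.4 in KMF replicates 1, 2 and 3 (log2 fold change 3.69 ± 0.31 SE, adjusted p-value 9.02e-05). Dsp, the gene of desmoplakin, rose by 1.85 ± 0.13 (SE, adjusted p-value 3.94e-05). Dsg2, a desmosomal cadherin, was the gene that fell, with 10.8 to 11.8 FPKM in ID8 and 2.16 to 3.61 in KMF (log2 fold change -1.86 ± 0.19 SE, adjusted p-value 0.000199). Both cadherin-family genes named beside Cdh1, Cdh2 and Dsg2, were thus lower in KMF.

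Epithelial surface and keratin genes, of which 10 of 19 were listed and 9 fitted, had 3 called higher and 6 lower, with a median log2 fold change of -2.43. Epcam, the epithelial cell adhesion molecule, had 2.76, 4.67 and 2.81 FPKM in ID8 replicates 1, 2 and 3 and 0.915, 0.424 and 0.517 in KMF replicates 1, 2 and 3 (log2 fold change -2.43 ± 0.37 SE, adjusted p-value 0.00141). The genes of the membrane-bound protease inhibitors Spint1 and Spint2 fell by 4.30 ± 0.49 and 3.81 ± 0.48 on the log2 scale (± SE, adjusted p-values 0.000376 and 0.000582). Krt7, an epithelial keratin, fell by 2.55 ± 0.39 (SE, adjusted p-value 0.00142). Lcn2, the gene of lipocalin 2, was higher in KMF but spread widely, with 52.7, 9.35 and 3.59 FPKM in KMF replicates 1, 2 and 3 against 1.45 to 2.89 in ID8. Its call (adjusted p-value 0.0224) was lost in 5 of 15 alternatives, among them the fits without ID8 replicate 1, 2 or 3, with adjusted p-values from 0.00432 to 0.0858. The other genes called higher were Muc1, a membrane mucin, with 0.330 to 0.370 FPKM in ID8 and 1.24 to 1.56 in KMF (log2 fold change 2.03 ± 0.25 SE, adjusted p-value 0.000569, called in all 15 alternatives), and Cd24a, a surface glycoprotein gene, with 6.66 to 19.9 FPKM in ID8 and 25.3 to 35.1 in KMF (1.28 ± 0.35 SE, adjusted p-value 0.0215). The call of Cd24a was lost without ID8 replicate 1 and without KMF replicate 3 (adjusted p-values 0.0737 and 0.0622). Krt8, Krt18, Krt19, Esrp1 and Esrp2 were not analysed here.

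**Figure D2:**
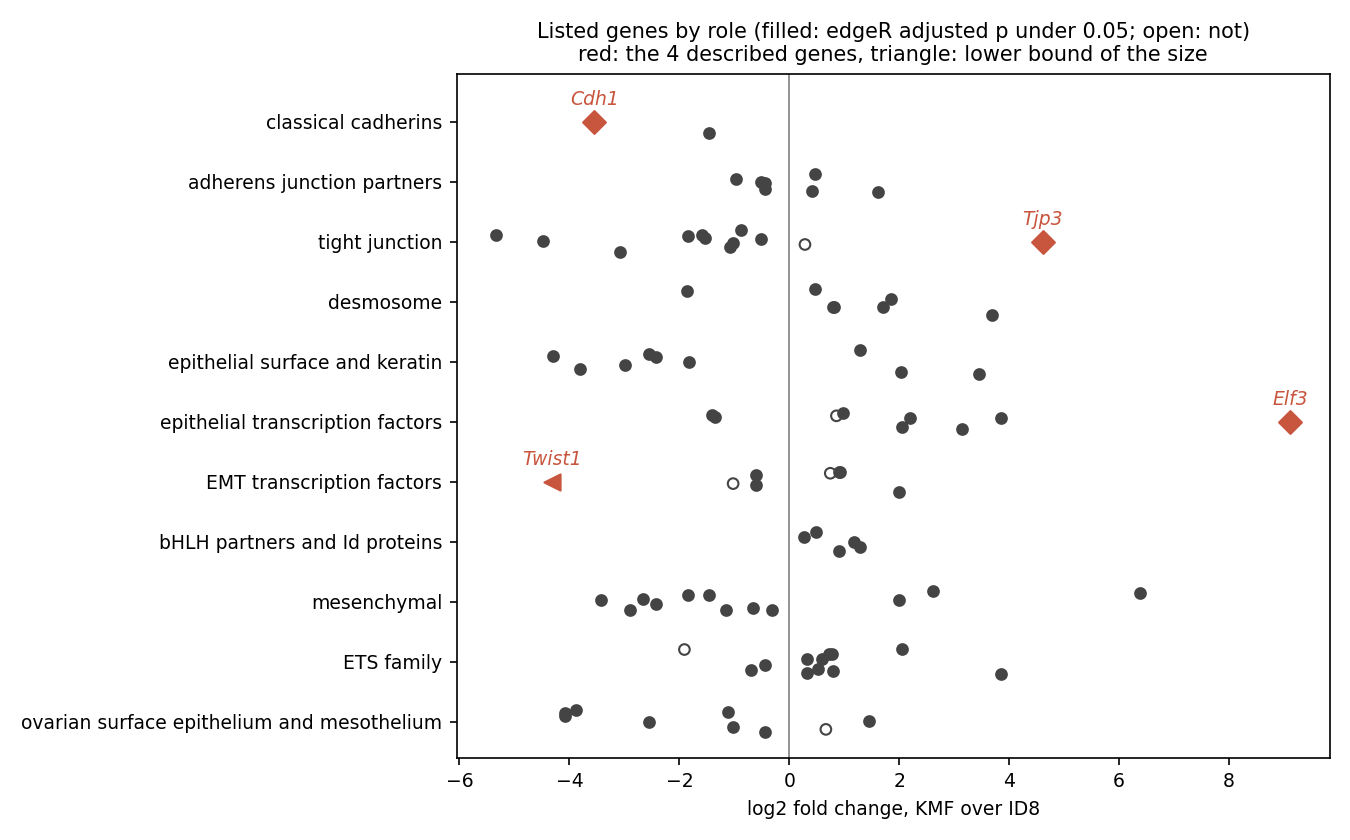
Each point is a listed gene, placed by its log2 fold change of KMF over ID8 (horizontal axis) in rows by role, filled where called and open where not, with the 4 described genes in red (Elf3 as the log2 ratio of summed counts, Twist1 as the bound). Tjp3 lies at 4.61 while the other called tight junction genes lie below 0, and Cdh1 lies at -3.55.

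Other epithelial transcription factors were called in both directions. Of 17 other genes, 9 were listed and 8 fitted, with 5 called higher, 2 lower and 1 not past the threshold, and a median log2 fold change of 1.51. With at least 10 counts in every library 2 were called higher, because that filter removes genes that are low in ID8. Without ID8 replicate 1, without KMF replicate 2 and with limma on log2(FPKM + 1), 3 were called higher, and the count of genes called lower was 1 without ID8 replicate 1 or KMF replicate 3 and 0 without KMF replicate 2. Trp63, the gene of the epithelial factor p63, was named after its values were seen, and its call (adjusted p-value 0.0414) was lost in 9 of 15 alternatives. Most of these factors were scarce, whereas Elf3 was not in KMF. Spdef, another epithelial ETS factor, had 6, 2 and 2 counts in ID8 replicates 1, 2 and 3 and 18, 62 and 67 in KMF replicates 1, 2 and 3 (log2 fold change 3.86 ± 0.63 SE, adjusted p-value 0.00207). As for Elf3, KMF replicate 1 was the lowest of its line. Grhl2, which is known to activate Cdh1, had 8, 10 and 13 counts in ID8 and 61, 76 and 146 in KMF replicates 1, 2 and 3 (log2 fold change 3.15 ± 0.35 SE, adjusted p-value 0.000345), or at most 0.889 FPKM. Klf4, a zinc finger factor of epithelial differentiation and pluripotency, was abundant in both lines and rose by 2.20 ± 0.14 on the log2 scale (SE, adjusted p-value 2.86e-05), to a mean of 201 FPKM in KMF. Ovol2, a repressor of mesenchymal genes, was not fitted and had 0 counts in every ID8 library and 5, 4 and 30 in KMF replicates 1, 2 and 3. The 2 factors called lower were Grhl3 and Gata3. Grhl3 had 0.713 to 0.827 FPKM in ID8 and 0.182 to 0.399 in KMF (log2 fold change -1.35 ± 0.33 SE, adjusted p-value 0.013). Gata3 had 0.971 to 2.09 FPKM in ID8 and 0.444 to 0.633 in KMF (-1.40 ± 0.35 SE, adjusted p-value 0.0151). Each of these calls was lost in 2 of 15 alternatives.

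Across the ETS family to which Elf3 belongs, 13 of 24 other genes were listed and 12 fitted, with 9 called higher, 2 lower and 1 not past the threshold. The median log2 fold change was 0.56. DESeq2 called 4 lower. Ehf, a close relative of Elf3, ranged from 4 to 14 counts in ID8 and from 26 to 49 counts in KMF (log2 fold change 2.05 ± 0.51 SE, adjusted p-value 0.0147), and its call was lost in 3 of 14 alternatives, among them the fits without ID8 replicate 1 and without KMF replicate 2, with adjusted p-values from 0.0059 to 0.0624. The broadly expressed Elf2 rose by 0.52 ± 0.07 and Elf4 by 0.32 ± 0.08 (log2 fold change ± SE, adjusted p-values 0.000613 and 0.0128), the latter lost in 3 of 15 alternatives, among them that without ID8 replicate 1 (adjusted p-value 0.0527). Etv3, a repressor of the family, rose by 0.80 ± 0.07 (log2 fold change ± SE, adjusted p-value 0.000131). Elf2 and Elf4 were above 10 FPKM on average in both lines, so that in ID8 they far exceeded Elf3, while in KMF the mean of Elf3, 22.4 ± 9.22 FPKM (SD, n = 3), lay between those of Elf4 and Elf2, at 12.5 and 29.1, with libraries of Elf3 that overlapped both. Elf1 and Elf5 were not analysed here.

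EMT transcription factors other than Twist1 were called in both directions. Of 12 such genes, 7 were listed, with 3 called higher, 2 lower and 2 not past the threshold, and the median log2 fold change was 0.75. Snai1, which encodes the Cdh1 repressor Snail, had 2.99, 2.20 and 3.41 FPKM in ID8 replicates 1, 2 and 3 and 4.21, 6.86 and 4.66 in KMF replicates 1, 2 and 3. The log2 fold change was 0.91 ± 0.25 (SE, adjusted p-value 0.0225), but the call was lost in 4 of 15 alternatives, among them the fits without ID8 replicate 1, ID8 replicate 2 or KMF replicate 2, with adjusted p-values from 0.00641 to 0.0735. Snai2, the gene of Slug, overlapped between the lines, at 1.34 to 3.10 FPKM in ID8 and 2.98 to 3.76 in KMF, and did not pass (log2 fold change 0.75 ± 0.31 SE, adjusted p-value 0.112, 0.00974 without ID8 replicate 2). Zeb2, another repressor of Cdh1, was lower in KMF, at 2.73 to 3.81 against 4.69 to 5.74 FPKM (log2 fold change -0.60 ± 0.14 SE, adjusted p-value 0.011). The homeobox gene Prrx2 and the T-box gene Tbx18 were called higher (adjusted p-values 0.0198 and 0.00465), Tbx18 with a log2 fold change of 0.92 ± 0.18 SE, and Prrx2, with the largest fitted change of these 7 genes, from a mean of 0.274 FPKM (SD 0.195, n = 3) in ID8 to one of 1.09 FPKM (SD 0.0739, n = 3) in KMF. Prrx2 was not called without KMF replicate 2 (adjusted p-value 0.0574). Twist1 was the single listed gene of this group with 0 counts in every library of a line, and it was chosen for that contrast. Twist2 and Zeb1 were not analysed here.

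Proteins that pair with TWIST1 are E proteins, and Id proteins bind E proteins without binding DNA. All 5 listed genes of 10 in this group were called higher, against 45.4% of all fitted genes, with a median log2 fold change of 0.91. Id1 rose by 1.28 ± 0.10, to a mean of 69.3 FPKM in KMF, and Id3 by 1.18 ± 0.26 (log2 fold change ± SE, adjusted p-values 5.43e-05 and 0.00843). The E protein gene Tcf4 rose by 0.48 ± 0.10 and Tcf12 by 0.27 ± 0.07 (log2 fold change ± SE, adjusted p-values 0.00771 and 0.0215). The call of Tcf12 was lost in 9 of 15 alternatives and that of Id2 in 8 of 15, with adjusted p-values up to 0.156 and 0.119. The count fell to 3 with upper quartile scaling, where Id2 and Tcf12 were not called, and also without ID8 replicate 1 and without ID8 replicate 2.

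Listed mesenchymal genes were called in both directions, most of them lower in KMF, as Twist1 was. Of 26 genes, 12 were listed and all 12 called, 9 of them lower and 3 higher, with a median log2 fold change of -1.31. Their summed FPKM was 389, 381 and 357 in ID8 replicates 1, 2 and 3 and 396, 382 and 339 in the KMF replicates. These sums were mostly Axl and S100a4, which went in opposite directions. Axl fell from a mean of 206.5 FPKM in ID8 to 160.9 in KMF (adjusted p-value 0.0285, call lost in 4 of 15 alternatives). S100a4 rose from a mean of 41.9 FPKM in ID8 to 163.2 in KMF (adjusted p-value 6.08e-05). The like sums therefore do not mean that the listed genes were unchanged. Fbn1 was also called higher (log2 fold change 2.61 ± 0.36 SE, adjusted p-value 0.0008965). Col3a1, the gene of type III collagen, had 10.8, 10.7 and 15.3 FPKM in ID8 replicates 1, 2 and 3 and 1.69, 1.18 and 0.514 in KMF replicates 1, 2 and 3 (log2 fold change -3.42 ± 0.39 SE, adjusted p-value 0.000356). Its ID8 replicate 3 was the highest of the line, unlike that of Cdh1 and Twist1. Col6a2, a type VI collagen chain, fell by 2.90 ± 0.42 on the log2 scale (SE, adjusted p-value 0.00116). Col6a3, another chain of type VI collagen, rose from 9 to 19 counts in ID8 libraries to between 1022 and 1428 in KMF (6.38 ± 0.26 SE on the log2 scale, adjusted p-value 7.38e-06). Vim, Fn1 and Cdh11 were not analysed here.

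**Figure D3:**
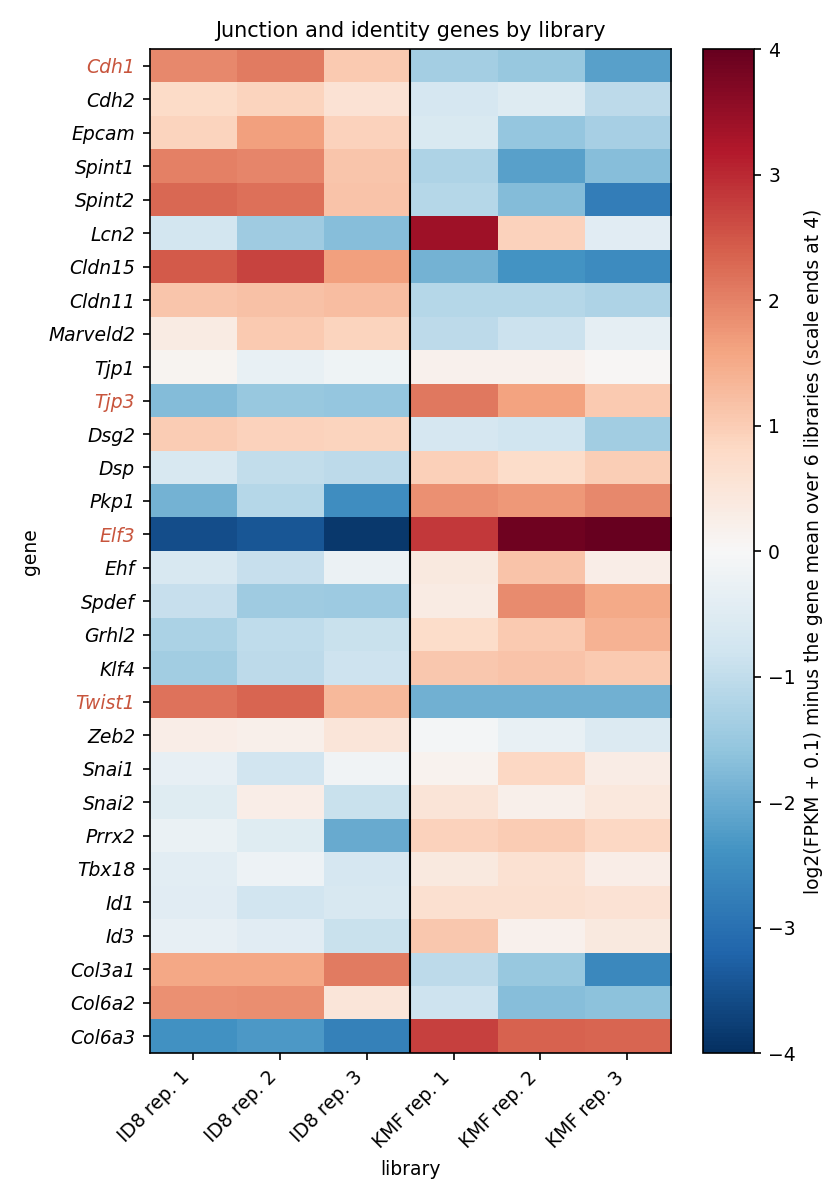
Colors give log2(FPKM + 0.1) of each gene (rows) in each library (columns) minus the mean of that gene over the 6 libraries, red above and blue below it, with the 4 described genes labeled in red and colors ending at 4 either way. Cdh1, Epcam, Spint1, Spint2 and Cldn15 share the pattern of Twist1, higher in ID8, whereas Tjp3, Pkp1, Dsp and Grhl2 share that of Elf3, and Tjp1 shows little difference.

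Listed markers of ovarian surface epithelium and mesothelium were examined. Only genes that differ between the lines were listed, so markers at like levels in both would be absent. The listed markers therefore cannot settle the labeled origin, and the same limit holds for the leukocyte and endothelial markers below. Of 14 genes, 9 were listed, with 1 called higher, 7 lower and 1 not past the threshold in KMF. Whether these listed genes relate to the differences above was not tested. Wt1, a defining factor of this epithelium, was abundant in both, at 94.8 to 118 FPKM in ID8 and 63.6 to 89.9 in KMF. Its call as lower (edgeR adjusted p-value 0.0384) was lost in 5 of 15 alternatives, with adjusted p-values from 0.00683 to 0.129. Msln, the gene of mesothelin, was higher in KMF (log2 fold change 1.45 ± 0.13 SE, adjusted p-value 0.000136). Upk3b had 25.2, 41.8 and 8.97 FPKM in ID8 replicates 1, 2 and 3 and 1.14 to 2.25 in KMF, and ID8 replicate 3 was again the lowest. Lrrn4 and Bnc1 had log2 fold changes of -4.08 ± 0.55 and -4.07 ± 0.46 (SE, adjusted p-values 0.00083 and 0.000345). Of 12 leukocyte markers 1 was listed, the Fc receptor gene Fcgr3, which ranged from 53 to 204 counts in ID8 libraries and from 6 to 45 counts in KMF libraries, and whose call (adjusted p-value 0.0246) was lost without ID8 replicate 1, ID8 replicate 3 or KMF replicate 2. Of 8 endothelial markers 2 were listed, Kdr and Tie1, with at most 17 counts in any library. The part of other cells in the differences of Cdh1, Tjp3, Elf3 and Twist1 was not tested.

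Listed genes with the most similar profile were sought for each of the 4 genes, by the distance between log2(CPM + 0.5) values over the 6 libraries after centering each gene on its mean. For Cdh1 the nearest were Bnc1 (distance 0.364), Spint2 (0.468) and Ank3 (0.484). Like Cdh1, Spint2 was lowest in replicate 3 of each line, at 903, 696 and 349 counts in ID8 replicates 1, 2 and 3 and 63, 40 and 26 in KMF replicates 1, 2 and 3. For Twist1 they were Npy1r (0.207), Lrch2 (0.219) and Grb14 (0.245). Npy1r, a neuropeptide Y receptor gene, had 86, 85 and 39 counts in ID8 replicates 1, 2 and 3 and 0 in each KMF library. For Tjp3 they were Htr6 (0.433), Aqp1 (0.473) and Adamtsl4 (0.499), with Htr6 at 143, 122 and 133 counts in KMF. For Elf3 the nearest genes were farther away, and were AI427809 (1.24), Slurp1 (1.30) and Nxph4 (1.34). Of these Nxph4 shared the low value in KMF replicate 1, with 296 counts against 784 and 920 in replicates 2 and 3.

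Neighbors on the chromosome were examined next. Within 1 Mb of Cdh1, 17 listed genes were fitted, 9 of them called lower and 4 higher, and their log2 fold changes had a median of -0.37 and a range from -2.34 to 0.77, so none reached the value of Cdh1. The nearest on each side, Smpd3 and Sntb2, lay 265 and 266 kb away, end to end. Around Elf3, 12 of 21 fitted genes were called higher and the other 9 lower (median 0.45), in a range from -4.67 to 3.69. Its nearest neighbors Rnpep and Gm4204, at 4.14 and 20.4 kb, rose by 0.38 ± 0.10 and 0.45 ± 0.13 (log2 fold change ± SE, adjusted p-values 0.0172 and 0.0238). Around Tjp3, 15 of 28 were called lower and 10 higher (median -0.27), in a range from -6.43 to 7.94. Pip5k1c, 1.70 kb away, rose by 1.41 ± 0.13, and Zfr2, 21.1 kb away on the other side, fell by 1.89 ± 0.31 (log2 fold change ± SE, adjusted p-values 0.000159 and 0.00195). Around Twist1 there were 3 listed genes, with 2 called higher and 0 lower, the nearest being Atxn7l1 at 582 kb. On the other side the nearest listed gene, Ahr, lay 1538 kb away and rose by 1.10 ± 0.19 (log2 fold change ± SE, adjusted p-value 0.00288). Copy number was not analysed here.

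**Figure D4:**
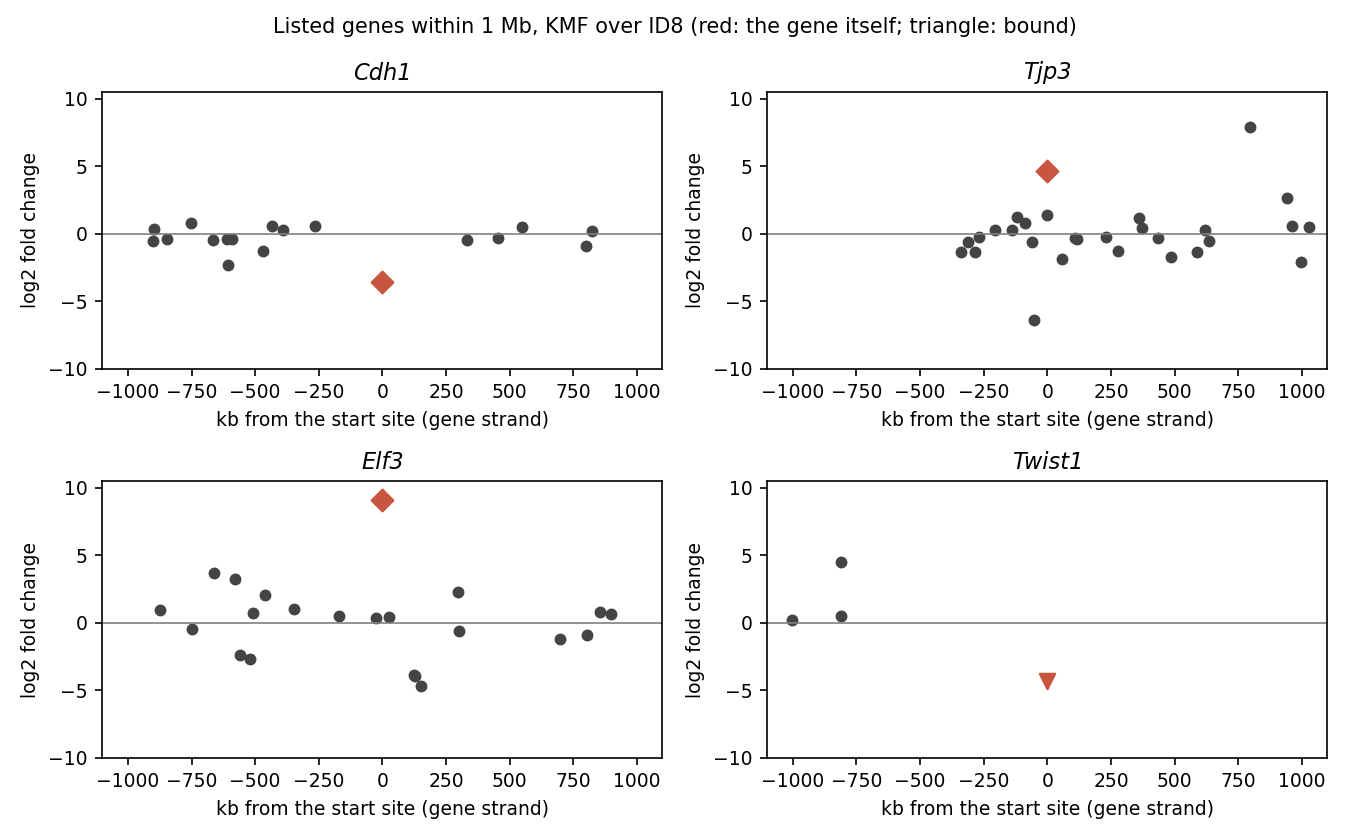
Points give the log2 fold change of KMF over ID8 (vertical axis) of listed genes within 1 Mb of each of the 4 genes against the distance in kb between start sites, on the strand of the gene, with the gene itself in red and the bound for Twist1 as a triangle. Cdh1 and Twist1 lie below, and Elf3 above, each of their listed neighbors, and neighbors of Tjp3 range from -6.43 to 7.94.

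The 6 libraries held 23108407 to 33212313 fragments on genes, of which the listed genes carried 52.8% to 55.9%. In these libraries 3 counts are worth 0.0903 to 0.13 CPM. At this depth Twist1 was not detectable in KMF, and Elf3 in ID8 rested on 7 counts in all.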

How the data were processed

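Poly-A RNA libraries (NEBNext Ultra kit) of ID8 and KMF tumorspheres, 3 per line, were sequenced as paired-end reads by a service provider. The methods of the study name TopHat2 for mapping, while the submitters' processing notes list CASAVA 1.8, STAR 2.5, DESeq2 and build mm10. The counting tool, the annotation and the use of strand are not given in the sources used here. The deposited table holds, per gene and library, raw read counts, which the authors did not normalize, and FPKM, which the authors scaled to the listed gene length and the fragments on genes. Library totals were recovered from count, FPKM and length (genes with at least 1000 counts) and used as library sizes. The authors' deposited fold change, line means, p-value and adjusted p-value hold their own comparison. The deposited p-value columns were used to recover that 17359 genes had been tested, and the table lists only the 7320 called there, so every list count is conditional on that selection. Of the listed gene identifiers, 7286 overlapped their position in GENCODE M21 on GRCm38, and 14 symbols that a spreadsheet had turned into dates were restored.

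The quasi-likelihood test of edgeR (version 4.0.16, R version 4.3.3; two-sided) was run on the counts after TMM scaling and filterByExpr, without a block, and p-values were adjusted by the Benjamini-Hochberg procedure over 17359 genes. A gene is named called where its adjusted p-value was below 0.05. The filter left 6967 genes, among them the 4 genes described. SE is the log2 fold change divided by the root of the F statistic. Counts were also simulated for the 7320 genes, with the same spread for every gene. A change of 1 log2 unit was put into 200 well-counted genes, up and down alike. The same fit, with adjustment over the 6970 genes fitted there, found 99.5% of those and made 8 false calls. In the data most listed genes differed and spreads were unlike, so the simulation checks the code and not the error rate here. Libraries of a line differed by more than sampling noise (chi-square per degree of freedom at least 19.3). Genes and lists were chosen with earlier results of these data known. Named genes were the 4, close paralogs and partners, the 3 called genes of each list with the largest change, the 3 with the nearest profile, and the nearest neighbors on each side. Close paralogs and partners were a fixed set that included Epcam, Krt7, Zeb2 and Ovol2. Muc1, Cd24a, Wt1, Msln, Tcf4, Tcf12, Grhl3, Gata3, Axl, S100a4, Fbn1, Afdn and the endothelial genes were named after their values were seen. Older symbols were matched through RefSeq (Nectin1 as Pvrl1). Alternatives were library totals alone, upper quartile scaling, DESeq2 1.42.0, no filter, at least 10 counts in every library, limma 3.58.1 on log2(FPKM + 1) and log2(FPKM + 0.1), a replicate block, adjustment over the fitted genes alone and leaving out each library. Tables and plots were made in Python 3.11.15 (pandas 2.3.3 on numpy 2.4.6, matplotlib 3.10.9), and intervals with scipy 1.17.1.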

Additional observations from a re-analysis of the deposited data

How the results depend on the processing

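Cdh1, Tjp3, Elf3 and Twist1 kept their direction in every alternative in which they could be fitted. Over the alternatives on counts the fitted log2 fold change ranged from -3.81 to -3.27 for Cdh1, from 4.30 to 4.88 for Tjp3, from 8.69 to 9.33 for Elf3 and from -9.21 to -8.37 for Twist1, the last 2 depending on the prior count. With at least 10 counts in every library only Cdh1 of the 4 was left to fit. The ratio of Elf3 was 435 to 672 and the bound of Twist1 17.3 to 24.1 when each library was left out. With limma on log2(FPKM + 1) the values were -2.43 for Cdh1, 1.18 for Tjp3, 4.40 for Elf3 and -1.26 for Twist1, and on log2(FPKM + 0.1) they were 3.21 for Tjp3, 7.22 for Elf3 and -3.87 for Twist1, because a pseudocount shrinks the change of low genes.

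Called genes numbered 6470, and between 5182 and 5907 when each library was left out. Upper quartile scaling shifted log2 fold changes by a median of -0.11, and gave 2462 higher and 3464 lower against 3164 and 3306. In the role lists, adjustment over the fitted genes alone called 1 tight junction gene higher. The count of epithelial transcription factors called higher was 3 with limma on log2(FPKM + 1) and 2 under the filter of 10 counts. That of bHLH partners and Id proteins was 3 under upper quartile scaling, under that filter and with limma at either pseudocount. DESeq2 called 4 ETS genes lower. Under that filter 0 leukocyte genes were lower. Endothelial genes had 1 higher and 1 lower with DESeq2 and with no filter, and 1 higher with limma on log2(FPKM + 0.1). Unless stated above, the cause was not tested. When each library was left out, counts ranged as follows. Tight junction genes higher were 0 to 1. Epithelial surface genes higher were 1 to 3. Epithelial transcription factors were 3 to 5 higher and 0 to 2 lower. EMT factors higher were 1 to 3. Genes of the bHLH group higher were 3 to 4. ETS genes lower were 2 to 4. Surface epithelium markers higher were 1 to 2. Leukocyte genes lower were 0 to 1. Endothelial genes higher were 0 to 1. Among the 85 fitted list genes, 26 gained or lost a call at least once, with 91 calls lost, 20 gained and 0 reversed of 1262.

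The replicate numbers do not pair the samples, since deviations of same-numbered libraries from their line means correlated at 0.0665, -0.187 and 0.0693, and not every library correlated best with its own number. With the replicate number as a block 5720 genes were called, 5640 of them shared with the 6470, with 2790 higher and 2930 lower.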
